A study of Mus musculus with 2 samples.

Results

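The 9 genes described here, Ltf, Lcn2, Muc1, Muc4, Padi1, Padi2, Padi4, Wfdc2 and Prap1, encode secreted, mucin and peptidylarginine deiminase products of the uterine epithelium and were taken by symbol. All 9 were among the 32285 genes listed for both libraries. Uteri from females of 6 months were taken whole, dissociated and profiled by droplet single-cell RNA sequencing of transcript 3′ ends. The control group carried floxed Prickle1 (Prickle1 f/f), while conditional knockouts (cKO) had those alleles plus a Cre recombinase driven by Ltf (Prickle1 f/f Ltf-cre). Each group was 1 library from 3 pooled mice, so there was no replicate check, no test was run, and genotype, animals, dissociation and library cannot be told apart. A genotype entry calls both samples C57BL/6J wild-type, unlike the titles used here, and the oestrous stage is not given in the sources used here. The Cre is expressed where Ltf is transcribed, so 1 of the 9 genes is also the driver of the deletion.

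In the mouse uterus, oestradiol acts through oestrogen receptor alpha and makes the luminal epithelium grow and secrete. Lactoferrin (Ltf) is a classic product of that response, an iron-binding protein released into the lumen, and lipocalin 2 (Lcn2) withholds iron from bacteria by binding their siderophores. Wfdc2 is a secreted protein with whey acidic protein domains, and Prap1 is a secreted proline-rich acidic protein of gut and uterine epithelium. Muc1 and Muc4 are membrane-anchored mucins of the apical surface, and loss of Muc1 from that surface accompanies receptivity in mice. The Padi enzymes convert peptidyl-arginine to citrulline. Padi1 and Padi2 are active in uterine epithelium, and Padi4 is best known for citrullinating histones in neutrophils.

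The 3 Padi members lie in 1 gene run on chromosome 4 (GRCm38), from Padi6 at 140727355 to the end of Padi2 at 140952586, a span of 225 kb that holds 5 Padi genes and no other protein-coding gene. Padi4 occupies 140745865 to 140774236 and Padi1 occupies 140812983 to 140845778, both on the minus strand, and Padi2 occupies 140906344 to 140952586 on the plus strand. Lcn2 (chromosome 2, 32384633 to 32388252, minus strand) and Wfdc2 (chromosome 2, 164562413 to 164568510, plus strand) share a chromosome but not a neighbourhood. Ltf lies at 111019271 to 111042767 on chromosome 9, Muc1 at 89229057 to 89233381 on chromosome 3, Muc4 at 32735886 to 32782391 on chromosome 16 and Prap1 at 140093395 to 140097200 on chromosome 7, all on the plus strand. Muc4 overlaps Muc20, Prap1 overlaps Fuom, Padi1 overlaps Gm13032 and Padi2 overlaps Gm13031 on the opposite strand. Whether strand was used in counting is not given in the sources used here, so reads of such pairs may not be separable.

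The 250 bases before the transcription start listed by RefSeq (GRCm38.p6) were read for all 9 genes and searched on both strands. The gene positions above come from another annotation, whose starts differ. By it the windows of Lcn2 and Wfdc2 lie inside the gene and that of Ltf runs past the gene start. The full palindromic oestrogen response element was found in the windows of 0 of the 9 genes, and in 21 of 32851 windows of the same length (0.0639%). Its half-site AGGTCA was found in 3 of 9 (Ltf, Prap1 and 1 of the 2 listed starts of Wfdc2), against 14.02% of all windows, and the AP-1 letters TGANTCA in Padi4 only, against 6.75%. The GC box GGGCGG was found in Lcn2, Muc1, Padi2 and Wfdc2 (32.7% of all windows), and TATAAA in Muc1, Muc4 and Padi4 (12.4%). A match describes letters and is no evidence of binding, and a window without one says nothing of other regions. Ltf and Muc4 had the lowest cKO to control ratios in summed CPM, and the direction of Prap1 depended on the cells and the scaling. In 1 random thinning of Epcam-positive cells to 1000 UMIs, Ltf and Muc1 were lowest, Muc1 from 2 cKO UMIs. The windows of Ltf, Muc4 and Prap1 are shown 5′ to 3′ on the coding strand. Capitals mark the half-site in either orientation, and Muc4 held none. Ltf is at chr9:111019042-111019291, Muc4 at chr16:32735636-32735885 and Prap1 at chr7:140093146-140093395, all plus strand.
Ltf: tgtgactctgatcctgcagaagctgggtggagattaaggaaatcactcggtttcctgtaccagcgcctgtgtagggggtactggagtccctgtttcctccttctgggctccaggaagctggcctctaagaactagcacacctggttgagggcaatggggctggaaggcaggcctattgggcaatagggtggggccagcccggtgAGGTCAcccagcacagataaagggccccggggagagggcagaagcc
Muc4: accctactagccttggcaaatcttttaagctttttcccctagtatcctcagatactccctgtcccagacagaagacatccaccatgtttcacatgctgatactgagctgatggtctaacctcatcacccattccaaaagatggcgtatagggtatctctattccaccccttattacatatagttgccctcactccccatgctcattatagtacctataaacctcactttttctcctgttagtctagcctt
Prap1: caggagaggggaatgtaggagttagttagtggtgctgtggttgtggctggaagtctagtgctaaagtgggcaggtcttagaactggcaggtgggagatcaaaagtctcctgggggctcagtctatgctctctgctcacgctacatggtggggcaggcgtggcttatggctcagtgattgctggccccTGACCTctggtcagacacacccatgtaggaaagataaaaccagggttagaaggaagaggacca

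The control library held 45035801 unique molecular identifiers (UMIs, each counting 1 captured transcript) and the cKO library 57145553. A barcode counted as a cell if it had 500 genes or more and no more than 20% mitochondrial UMIs, 3653 in control (median 4650 UMIs) and 4950 in cKO (median 5944 UMIs), and 5 cell barcodes occurred in both libraries. Cells with an Epcam UMI and no Ptprc UMI, called Epcam-positive below, numbered 998 in control (27.3% of cells) and 130 in cKO (2.63%). Cell-free RNA was read from the 730412 control and 812108 cKO barcodes with at most 100 UMIs. Prickle1, the targeted gene, had 16 control and 19 cKO UMIs in Epcam-positive cells. In CPM, the usual scaling of counts to 1 common total per cell set, that is 0.879 and 4.28. In the marker-majority cells defined below it had 13 and 2 UMIs, 0.751 (0.400 to 1.28) and 0.852 CPM (0.103 to 3.08), and 17 of the 19 cKO UMIs lay in the other Epcam-positive cells. Since 3′ counts cannot reveal a deleted exon upstream, this checks neither label.

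The 2 sets of Epcam-positive cells differed in makeup. The 10 epithelial markers summed to 15022 CPM in control and 8036 CPM in cKO, and the 6 stromal fibroblast markers to 532 and 5192 CPM, with no marker of either list at 0. The 3 mesothelial markers summed to 25.3 CPM in control and 409.7 CPM in cKO. Cells in which epithelial marker UMIs outnumbered those of stromal, smooth muscle, endothelial and mesothelial markers together were therefore also taken alone, a choice made after seeing the data that uses none of the 9 genes. They are called marker-majority cells and numbered 941 in control and 57 in cKO, with medians of 6352 and 20976 UMIs. In them Cdh1, the epithelial cadherin, stood at 887 CPM in control and 852 CPM in cKO, and Dcn, a fibroblast proteoglycan, at 24.0 and 39.6 CPM. The sets still differed in makeup. The smooth muscle markers summed to 33.7 CPM in control and 551 CPM in cKO, of which Acta2 gave 10.6 and 514 CPM while Myh11 had 25 UMIs in control and 0 in cKO. Summed alike, the stromal fibroblast markers stood at 38.4 and 157 CPM (6 of 6 with a UMI in both) and the epithelial markers at 15726 and 13823 CPM. Among single genes Col1a1, a fibroblast collagen, was 2.14 and 52.0 CPM, and Cldn3, an epithelial tight junction gene, 725 and 397 CPM. The 4 gland markers summed to 1.50 CPM in control and 27.3 CPM in cKO, where 53 Prss29 UMIs lay in 1 cell. The part of this makeup in the member ratios was not tested. The other 73 cKO cells with an Epcam UMI had 2.39 CPM of Cdh1 and 8293 CPM of Dcn, and 53.4% of them had a UMI of the mesothelial gene Msln. Those 73 cells held 0 UMIs of Ltf, Muc4 and Padi4, 3 of Prap1, 4 of Muc1, 5 of Padi1, 7 of Padi2, 9 of Lcn2 and 28 of Wfdc2. The ratio of each member is therefore given for all Epcam-positive cells and for marker-majority cells.

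In both libraries every member had its highest level in Epcam-positive cells and was low in stroma. The stroma (cells with a Pdgfra UMI and no Epcam or Ptprc UMI, 636 in control and 1487 in cKO) was set beside them as cells of the same libraries bathed in the same free RNA. Ltf stood at 1504 CPM in control Epcam-positive cells, 612 CPM in cell-free RNA and 3.09 CPM in stroma. In cKO it stood at 113 CPM in Epcam-positive cells and 7.002 CPM in cell-free RNA, and 0 UMIs were counted in stroma, which allows up to 0.115 CPM. For each of the 9 members in each library the order was the same, with Epcam-positive cells highest, then cell-free RNA, then stroma. The members' levels ranged from 0.713 to 31.0 CPM in control stroma and from 0 to 5.40 CPM in cKO stroma. Of all member UMIs in control cells, Epcam-positive cells held between 87.0% (Padi4) and 94.8% (Lcn2). In cKO they held between 35.5% (Padi2) and 85.2% (Padi1), and cells outside the Epcam-positive, stromal and leukocyte sets held between 13.3% (Padi1) and 27.1% (Muc4).

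**Figure D1:**
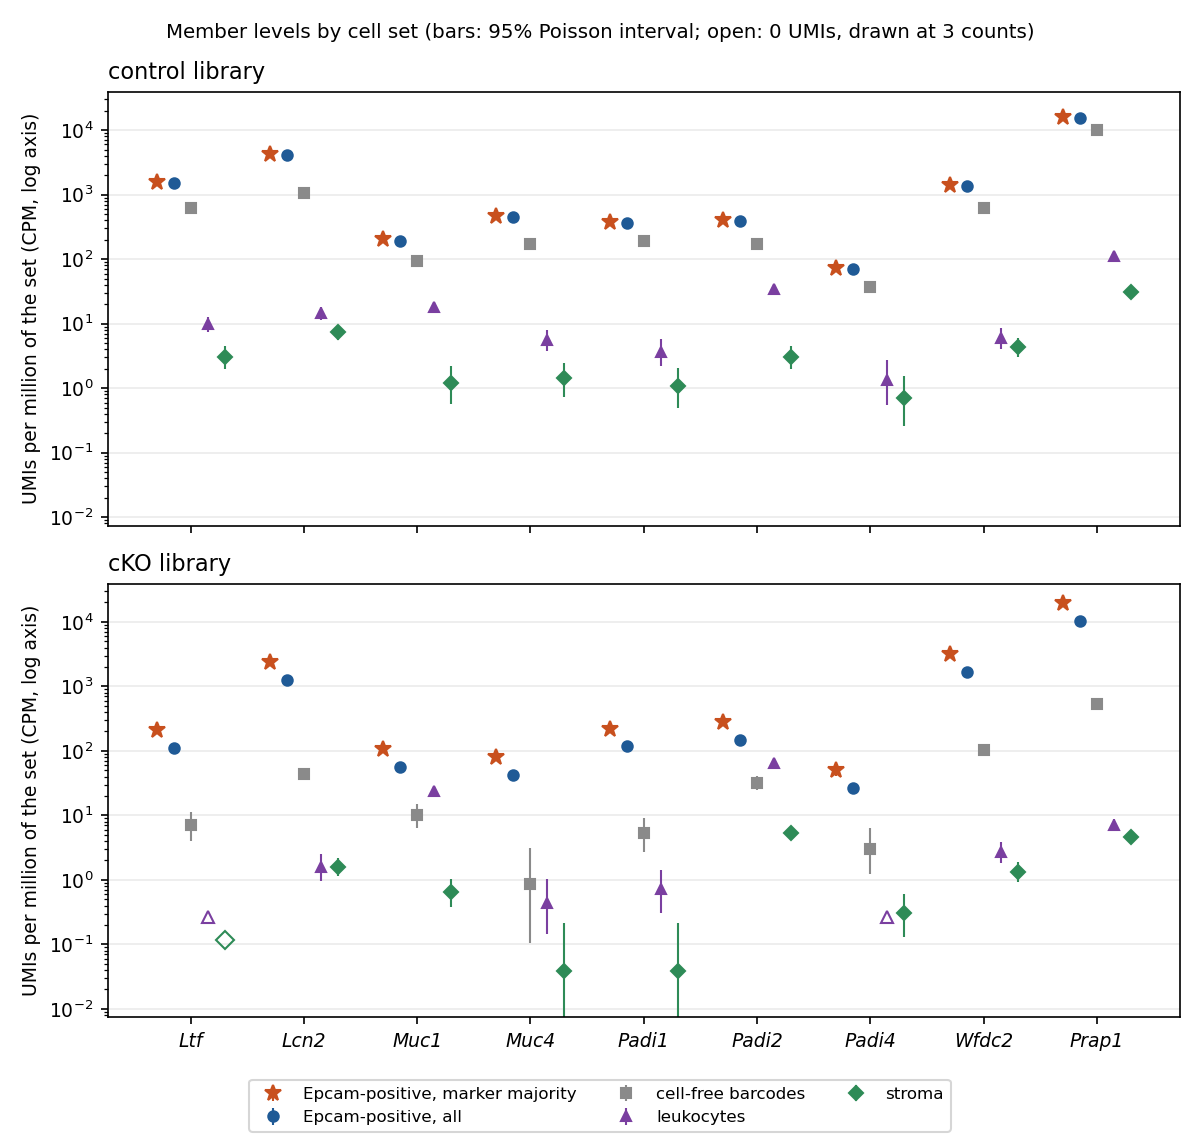
UMIs of each cell set scaled to CPM (log axis) for the 9 members in the control library (upper panel) and the cKO library (lower panel). Filled points carry exact 95% Poisson intervals, which cover counting error only, and open points mark 0 UMIs drawn at 3 counts. In control the cell-free level of every member lies closer to the Epcam-positive level than the stromal level does, and in cKO the leukocyte points of Padi2 and Muc1 stand above the cell-free points.

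Cell-free RNA itself held less of every member in cKO. Ltf went from 612 to 7.002 CPM, Muc4 from 172 CPM to 2 UMIs (0.875 CPM) and Lcn2 from 1070.2 to 43.8 CPM between the libraries. Prap1 was at 10057 CPM in control and 533 CPM in cKO, and Wfdc2 at 616 and 102 CPM. The 10 epithelial markers summed to 5099.7 CPM in control cell-free RNA and 594 CPM in cKO, so fewer epithelial cells and less RNA per cell cannot be told apart in this fraction.

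Padi2 and Muc1 were also found in leukocytes. Cells with a Ptprc UMI and no Epcam or Pdgfra UMI (688 in control and 1588 in cKO), whose Ptprc marks leukocytes, had 34.3 CPM of Padi2 in control and 65.8 CPM in cKO, against 3.09 and 5.40 CPM in stroma. Muc1 in the same cells stood at 17.9 and 24.0 CPM, against 1.19 and 0.652 CPM in stroma. In cKO these cells held 39.7% of all Padi2 UMIs and 42.9% of all Muc1 UMIs found in cells, more than the 35.5% and 39.9% held by Epcam-positive cells. After thinning to 1000 UMIs, 5.30% (3.74 to 7.26) of control and 6.05% (4.92 to 7.35) of cKO leukocytes had a Padi2 UMI. The shares lay further apart at 2000 UMIs, with 6.98% (5.12 to 9.26) of 630 control and 10.99% (9.45 to 12.7) of 1502 cKO leukocytes, and at 5000 UMIs, with 12.02% (9.05 to 15.5) of 416 and 23.9% (21.1 to 26.9) of 879. Padi4 had 7 UMIs in control leukocytes and 0 in cKO leukocytes, which allows up to 0.266 CPM. The neutrophil genes Camp, Ngp and Ly6g were at 0 in the leukocytes of both libraries, and the 7 neutrophil markers summed to 81.3 CPM in control and 8.52 CPM in cKO.

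Over all Epcam-positive cells, 7 of the 9 members were at least 2-fold lower in cKO than in control, and 0 were at least 2-fold higher. Of the 13457 genes with at least 10 UMIs in the library where their CPM was higher, 11.7% were at least 2-fold lower and 28.9% at least 2-fold higher. The median log2 ratio of cKO to control was -1.62 over the 9 members and 0.39 over all genes tested. In marker-majority cells only Ltf and Muc4 were at least 2-fold lower and Wfdc2 was at least 2-fold higher, where 13.9% and 20.5% of 11900 genes passed the same limits. That count holds for CPM without further scaling. With TMM scaling, which aligns the bulk of genes, 6 members were at least 2-fold lower in these cells and 0 higher, against 22.7% and 10.8% of all genes. After thinning to 1000 UMIs 5 were lower and 1 higher, against 28.9% and 6.31% of 4562 genes with enough UMIs. That thinning was 1 random draw, in which Muc1 was seen in 2 cKO cells and Padi4 in 1. With these cells unthinned and weighted equally 4 were lower and 1 higher, against 21.3% and 23.2% of all genes. Over all Epcam-positive cells TMM scaling gave 8 lower, Prap1 added at a log2 ratio of -1.15, and 0 higher, against 21.9% and 17% of all genes. The median in marker-majority cells was -0.78 for the members and 0.16 for all genes tested. The members were chosen with such results known, so their direction is a description. Intervals in parentheses below are exact 95% intervals for counting error.

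Among the secreted proteins, Ltf was 1504 CPM in control and 113 CPM in cKO Epcam-positive cells, 13.3-fold lower (12.2 to 14.6). In marker-majority cells it was 1579.5 and 213 CPM, 7.42-fold lower (6.79 to 8.12). Ltf thus lay far below control in both sets, and the 500 Ltf UMIs of cKO Epcam-positive cells all came from 28 marker-majority cells. Lcn2 was 4055 and 1266 CPM, 3.20-fold lower (3.12 to 3.29), but 4262 and 2389 CPM in marker-majority cells, 1.78-fold lower (1.74 to 1.83). For Lcn2 the choice of cells moved the ratio across the 2-fold limit, and with TMM scaling the log2 ratio in marker-majority cells was -1.28, beyond that limit again.

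Prap1 and Wfdc2 stood apart, with directions that depended on the cells taken or on the scaling. Prap1 was 15276 and 10232 CPM over Epcam-positive cells, 1.49-fold lower in cKO (1.48 to 1.51). In marker-majority cells it was 16039 and 19334 CPM, 1.21-fold higher in cKO (1.19 to 1.22), although with TMM scaling its log2 ratio there was -0.18, above that of the median gene (-0.29), and -1.15 over Epcam-positive cells, below that of the median gene (also -0.18). Wfdc2 was 1350 and 1675 CPM, 1.24-fold higher in cKO (1.21 to 1.27), although with TMM scaling its log2 ratio was -0.26 where the median gene stood at -0.18. In marker-majority cells Wfdc2 was 1417 and 3154 CPM, 2.23-fold higher (2.17 to 2.28), and its log2 ratio there was 0.71 with TMM scaling. Unscaled, its log2 ratio was 0.31 in Epcam-positive cells, where the median gene stood at 0.39, and 1.15 in marker-majority cells, where the median gene stood at 0.16.

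Of the mucins, Muc4 was 446 CPM in control and 42.8 CPM in cKO Epcam-positive cells, 10.4-fold lower (9.01 to 12.1). In marker-majority cells it was 467 and 80.9 CPM, 5.78-fold lower (5.00 to 6.71). Muc1 was 195 and 56.8 CPM, 3.43-fold lower (3.01 to 3.91), and 204 and 106 CPM in marker-majority cells, 1.94-fold lower (1.70 to 2.21), an interval that includes 2-fold. With TMM scaling the log2 ratio of Muc1 there was -1.40. In summed CPM the intervals of the 2 mucins did not overlap in either set. A random thinning of Epcam-positive cells to 1000 UMIs gave log2 ratios of -3.71 for Muc1, from 2 cKO UMIs, and -2.99 for Muc4, from 10. With those cells unthinned and weighted equally the ratios were -2.40 and -3.99. The order in the thinned draw is therefore not read as an effect of depth. In marker-majority cells thinning gave -2.62 for Muc1 and -3.28 for Muc4, and equal weights gave -1.31 and -2.88.

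In summed CPM the 3 Padi members had overlapping intervals in both sets, those of Padi1 and Padi2 only at their edges. Padi1 was 365 CPM in control and 118 CPM in cKO, 3.09-fold lower (2.82 to 3.38). Padi2 was 390 and 149 CPM, 2.61-fold lower (2.41 to 2.83), and Padi4 was 70.1 and 26.4 CPM, 2.66-fold lower (2.20 to 3.24). In marker-majority cells Padi1 was 382 and 221 CPM, 1.72-fold lower (1.58 to 1.89), Padi2 was 409 and 279 CPM, 1.46-fold lower (1.35 to 1.59), and Padi4 was 73.4 and 49.8 CPM, 1.47-fold lower (1.22 to 1.80). With TMM scaling the log2 ratios in those cells were -1.24 for Padi1 and -1.01 for Padi4, past the 2-fold limit, while Padi2 stood just short of it. Thinned to 1000 UMIs they were -1.21 for Padi1, -0.55 for Padi2 and -2.55 for Padi4, seen in 1 cKO cell. Weighted equally they were -0.68, -0.79 and -1.03. Thinned Epcam-positive cells gave -2.55, -1.69 and -2.80, the last from 2 cKO UMIs. Of the other genes of the run, Padi3 had 21 UMIs in control and 3 in cKO Epcam-positive cells, a ratio of 0.586 (0.112 to 1.96), and Padi6 was below 10 UMIs in both libraries.

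Because cKO marker-majority cells were deeper, those with over 10000 UMIs were also compared, 355 in control (median 32489 UMIs) and 39 in cKO (median 41124 UMIs). Ltf was then 7.61-fold lower (6.96 to 8.33) and Muc4 5.24-fold lower (4.52 to 6.101), and Wfdc2 2.20-fold higher (2.14 to 2.26). Padi4 was 62.6 and 48.7 CPM, 1.28-fold lower (1.05 to 1.58). At these more alike depths Ltf and Muc4 had the lowest ratios, and Prap1 (1.30-fold higher) and Wfdc2 alone lay above control, in CPM without further scaling.

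**Figure D2:**
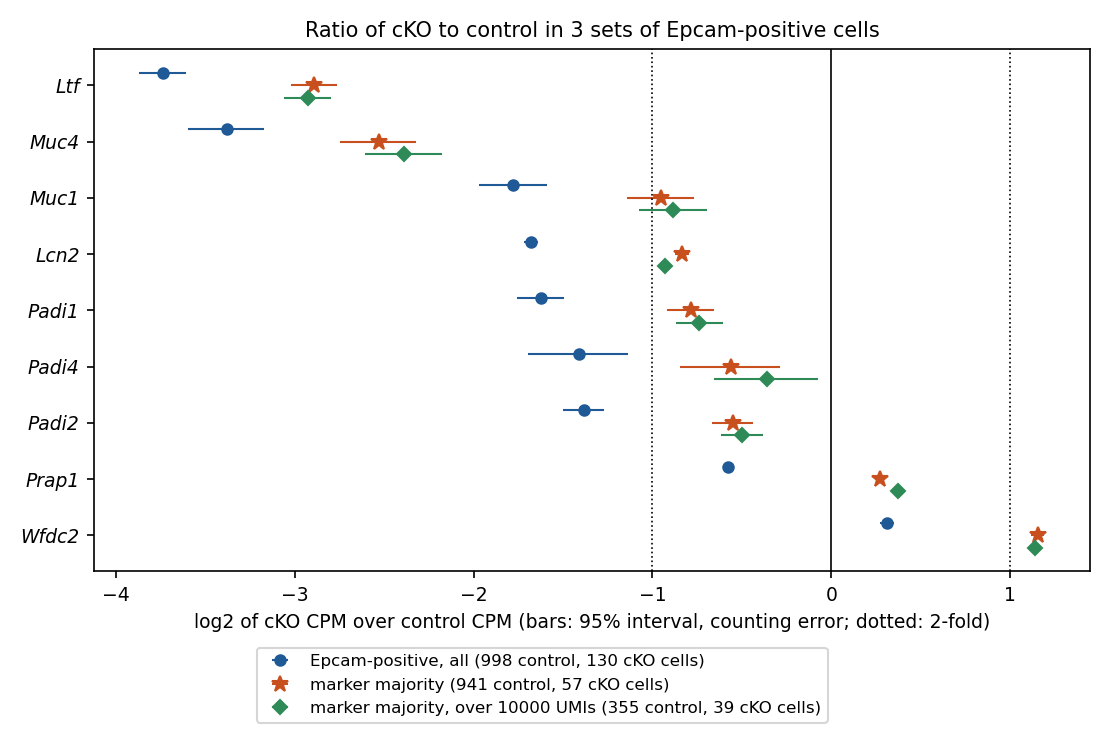
Log2 ratio of cKO to control CPM for each member in all Epcam-positive cells, in marker-majority cells and in marker-majority cells with over 10000 UMIs. Horizontal bars are exact 95% intervals for counting error and dotted lines mark 2-fold. Ltf and Muc4 lie left of the 2-fold line in all 3 sets, and the other 5 members that lie there over all Epcam-positive cells lie to its right in the marker-majority sets, which are drawn in CPM without TMM scaling (with it, 4 of those 5 lie left of the line in marker-majority cells).

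The cKO values rested on few cells. Of the 500 Ltf UMIs in cKO Epcam-positive cells, 29.0% lay in 1 cell and 76.4% in 5 cells, and 3 cells held at least 50% of them, against 77 cells for the control marker-majority UMIs. For Lcn2 and Prap1, 4 cKO cells held at least 50% of the marker-majority UMIs, and for the other members between 5 and 8 cells did. In control the number was between 60 (Wfdc2) and 113 (Muc4) cells. The sets held 941 control and 57 cKO cells, so these numbers do not compare how concentrated the UMIs were. For Muc4 it was 113 of 941 cells in control and 7 of 57 in cKO. Per cell, control marker-majority cells had a median of 9.06 Ltf UMIs per 10000 UMIs (25th to 75th percentile 3.60 to 17.1, highest 164). The 57 cKO cells had a median of 0 (0 to 1.13, highest 29.4), so most cKO cells lay below the lower quartile of control, with a tail that reached into it. For Muc4 the median was 4.69 (2.27 to 8.38) in control and 0.469 (0 to 1.08) in cKO, and 1 cKO cell reached 16.2.

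The other members overlapped more. Lcn2 had a median of 20.3 UMIs per 10000 (8.55 to 38.9) in control and 10.8 (3.64 to 23.3) in cKO. Padi2 had 3.24 (0 to 6.45) and 2.24 (0 to 4.34), and Padi1 had 2.37 (0 to 5.12) and 0.896 (0 to 2.85). The medians were 1.52 and 0.586 for Muc1 and 0.211 and 0.191 for Padi4. For Wfdc2 the cKO cells lay higher, with a median of 21.8 (11.1 to 38.9) against 7.56 (2.60 to 17.5). Prap1 was the most uneven, with 95.1 (31.6 to 261) in control and 55.1 (0.313 to 410) in cKO, so that its median was lower and its upper quartile higher in cKO. The sum and the typical cell therefore differed in direction for Prap1.

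**Figure D3:**
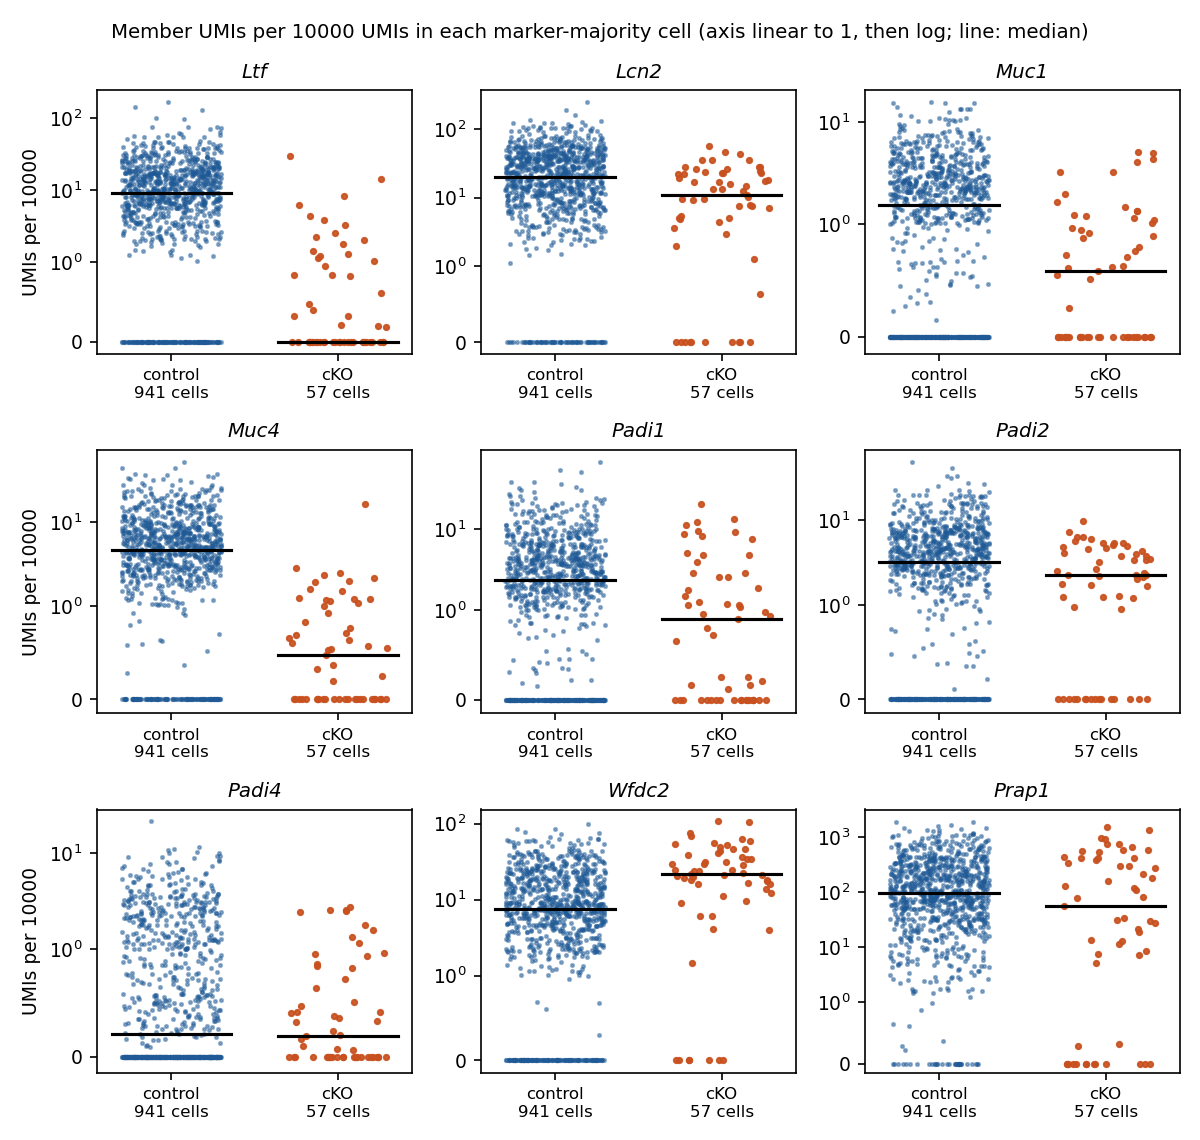
UMIs of each member per 10000 UMIs in every marker-majority cell of the control (blue, 941 cells) and cKO (orange, 57 cells) libraries, on an axis that is linear to 1 and logarithmic above. Black lines are medians. The cKO medians of Ltf and Muc4 (0 and 0.469) lie below the control medians (9.06 and 4.69), and that of Wfdc2 (21.8) lies above the control median (7.56).

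To compare cells at 1 depth, each was thinned at random to 1000 UMIs, which left out 8 of 998 control Epcam-positive cells and 0 of 130 cKO cells. Ltf was then seen in 55.9% (52.7 to 59.0) of control and 3.85% (1.26 to 8.75) of cKO Epcam-positive cells, against 82.3% and 21.5% before thinning at medians of 6565.5 and 17410.5 UMIs. In stroma 0.160% of 625 control cells and 0 of 1476 cKO cells had an Ltf UMI after thinning, at medians of 12290 and 15733 UMIs. A barcode of 1000 UMIs drawn from the control cell-free profile would hold an Ltf UMI with a chance of 45.8%, far above the share in stroma. In marker-majority cells the share was 57.5% (54.3 to 60.7) in control and 10.5% (3.96 to 21.5) in cKO.

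Muc4 detection followed its level. Muc4 was seen in 42.4% (39.2 to 45.6) of control and 7.02% (1.95 to 17.0) of cKO cells. Muc1 was seen in 19.6% (17.1 to 22.3) and 3.51% (0.428 to 12.1), the latter only 2 cells. Prap1 was seen in 88.7% (86.4 to 90.6) and 64.9% (51.1 to 77.1), while its summed CPM was higher in cKO, so no order is read from its shares. Wfdc2 was seen in 54.7% (51.5 to 57.9) of control and 75.4% (62.2 to 85.9) of cKO cells. For Lcn2 the shares were 74.9% (72.0 to 77.7) and 71.9% (58.5 to 83.0), for Padi1 26.7% (23.8 to 29.6) and 14.04% (6.26 to 25.8), for Padi2 31.6% (28.6 to 34.7) and 21.1% (11.4 to 33.9) and for Padi4 8.99% (7.24 to 11.0) and 1.75% (0.0444 to 9.39). These intervals are over cells of 1 library each and give counting error, not a test between the genotypes. At 5000 UMIs (546 control and 45 cKO cells), the depth used below for pairs of genes, the shares were 97.3% (95.5 to 98.5) and 84.4% (70.5 to 93.5) for Lcn2, 35.3% (31.3 to 39.5) and 15.6% (6.49 to 29.5) for Padi4, and 69.96% (65.9 to 73.8) and 51.1% (35.8 to 66.3) for Padi1. For Padi2 they were 73.1% (69.1 to 76.8) and 68.9% (53.4 to 81.8). Muc1 stood at 58.4% (54.2 to 62.6) and 31.1% (18.2 to 46.6) at that depth, and Wfdc2 at 88.8% (85.9 to 91.3) and 91.1% (78.8 to 97.5), closer together than at 1000 UMIs.

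**Figure D4:**
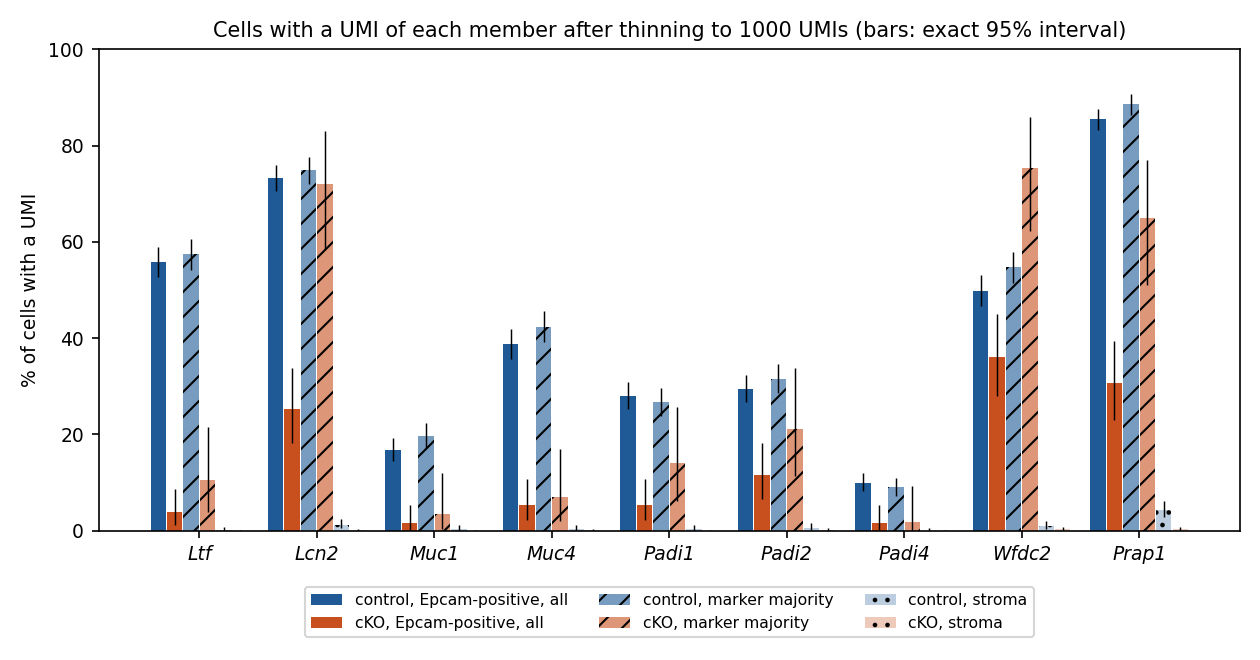
Percentage of cells with at least 1 UMI of each member after thinning every cell to 1000 UMIs, for all Epcam-positive cells, marker-majority cells and stroma of each library, with exact 95% intervals. Stromal shares lie at or below 4.32%, and in marker-majority cells the Ltf share is 57.5% in control and 10.5% in cKO.

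Most control epithelial cells carried several members at once. After thinning, 82.7% (80.2 to 85.0) of control Epcam-positive cells had UMIs of at least 3 members and 4.44% had none. In cKO 29.2% (21.6 to 37.8) had at least 3 and 60.0% (51.0 to 68.5) had none. In marker-majority cells the shares with at least 3 were 86.8% (84.5 to 88.9) and 61.4% (47.6 to 74.0), and those with none 0.642% and 12.3%. In stroma 0.480% of control cells and 0 of 1476 cKO cells had at least 3.

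The spread between control cells was wider than counting alone for most members. At 1000 UMIs a gene drawn at 1 common rate would have a Fano factor (variance over mean) near 1, and in control marker-majority cells it was 36.9 for Prap1, 3.33 for Lcn2, 2.45 for Ltf and 2.26 for Wfdc2. It was 1.82 for Padi1, 1.49 for Muc4 and 1.42 for Padi2, and 0.975 for Muc1 and 1.17 for Padi4, whose counts are low at this depth. At 5000 UMIs it was 160 for Prap1, 11.4 for Lcn2, 8.13 for Wfdc2, 6.92 for Ltf and 4.59 for Padi1. For Muc4 it was then 2.69, for Padi2 2.27, for Muc1 1.56 and for Padi4 1.52. The Fano factor depends on a gene's level as well as its spread, so no order of spread is read from it. For Prap1, the 10% of control cells with most UMIs held 42.9% of its UMIs at 1000 UMIs and 41.4% at 5000. For Padi1 those shares were 58.8% and 42.8%. In cKO the Fano factor of Prap1 was 51.5 and that of Wfdc2 3.35 over 57 cells at 1000 UMIs.

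Co-expression was described by Spearman correlations across cells of 1 library, which share depth and makeup and are not replicates. Counts at 1000 UMIs are sparse, so marker-majority cells thinned to 5000 UMIs (546 in control and 45 in cKO), a depth chosen after seeing the data, are given. In control the 6 pairs among Ltf, Lcn2, Wfdc2 and Prap1 lay between 0.26 and 0.51, the highest being Lcn2 with Wfdc2 and the next Ltf with Lcn2 at 0.49. The 3 Padi pairs were weaker, from 0.08 to 0.21, with Padi2 and Padi4 highest. Between the Padi and the secreted genes 9 of 12 pairs were below 0, and the lowest of all 36 was Padi2 with Prap1 at -0.37. Muc1 with Muc4 stood at 0.01. Of cells with an Lcn2 UMI 90.6% also had a Wfdc2 UMI, against 26.7% of the 15 cells without one.

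The same contrast between groups of pairs was seen at 1000 UMIs, where the secreted pairs lay between 0.22 and 0.36 and 10 of 12 pairs of a Padi with a secreted gene were below 0 over 934 control cells. Prap1 alone took a mean of 20.1 of each 1000 UMIs in those cells, and its part in the negative pairs was not tested. In cKO, Wfdc2 and Prap1 correlated at 0.55 and Ltf and Lcn2 at 0.36 over 45 cells, and Ltf with Prap1 stood at -0.23, where control had 0.26. Only 8 of the 45 cells had an Ltf UMI. Over all Epcam-positive cells at 5000 UMIs Ltf with Prap1 stood at 0.25 in cKO and 0.39 in control. At 5000 UMIs 3 of the 6 secreted pairs were above 0 in cKO (median 0.18), against 6 in control (median 0.36). Of the 12 pairs of a Padi with a secreted gene, 9 were above 0 in cKO (median 0.14), against 3 in control (median -0.11). Without the marker condition the median of the 36 pairs was 0.12 in control and 0.44 in cKO at 5000 UMIs, against 0.03 and 0.18 in marker-majority cells. The 73 cKO cells outside the marker majority held few or no UMIs of most members, as given above.

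**Figure D5:**
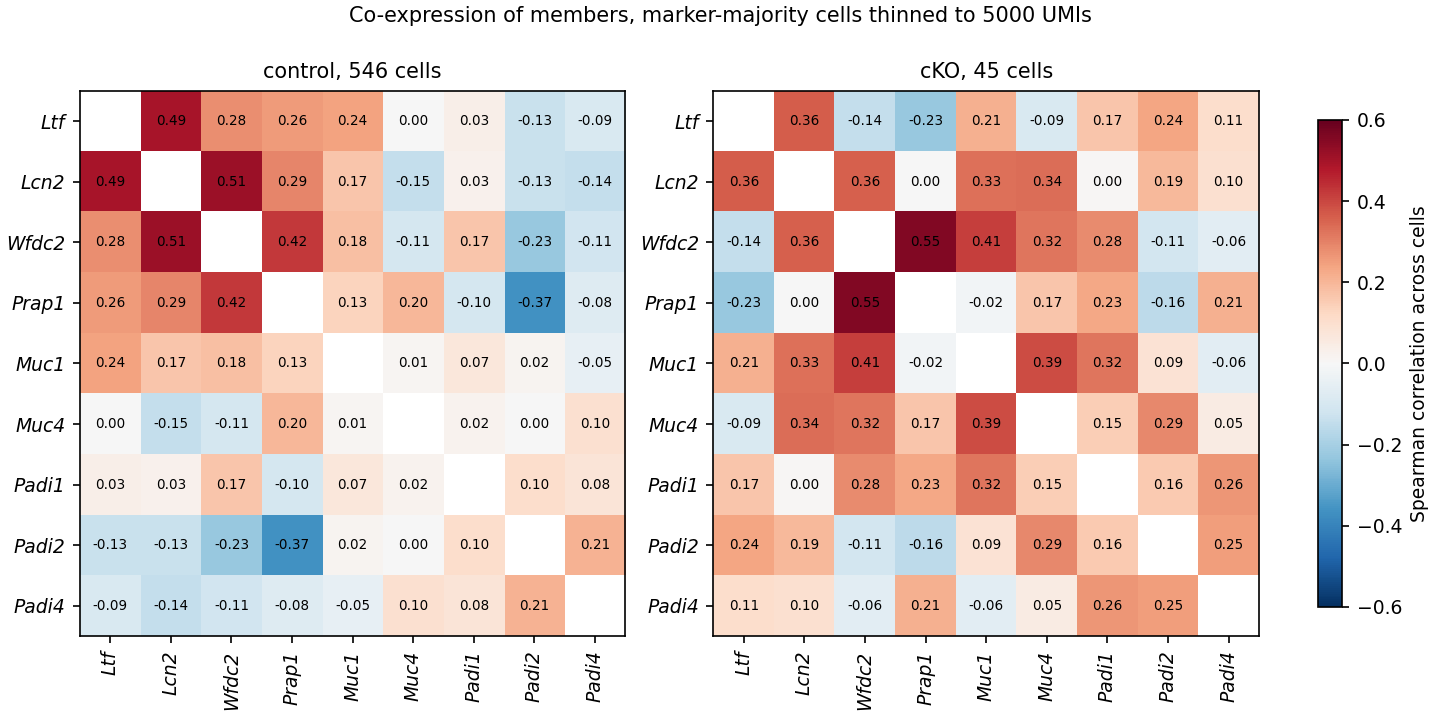
Spearman correlations between the members across marker-majority cells thinned to 5000 UMIs, in control (546 cells, left) and cKO (45 cells, right), each cell of the grid being 1 pair. In control the block of Ltf, Lcn2, Wfdc2 and Prap1 is positive (0.26 to 0.51) and Padi2 with Prap1 is the lowest pair (-0.37).

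Within the control Epcam-positive cells, those outside the marker majority included, the members differed between depth and state classes, each thinned to 1000 UMIs. The 390 cells with over 10000 UMIs had 3623 CPM of Lcn2 and 403 CPM of Muc4, and the 521 cells with 2000 to 10000 UMIs had 1948 and 731 CPM, so deeper cells held more of the one and less of the other. The 81 cells with a UMI of Ifnb1, the interferon beta gene, had 36667 CPM of Prap1 and 1815 CPM of Wfdc2, against 17510.5 and 1110.0 CPM in the 909 cells without one. Padi4 was 37.0 CPM in them, from 3 UMIs, and 113 CPM without. Their median depth was 17602 against 6195 UMIs before thinning, and its part in this was not tested. The 70 cells with a UMI of the cell cycle genes Mki67 or Top2a (median 31531 UMIs) had 8229 CPM of Prap1, and the other 920 (median 6066.5 UMIs) had 19903 CPM, while Ltf was 1214 and 1254 CPM. Only 15 control cells and 5 of the 130 cKO cells had a UMI of Foxa2, a gland gene, which is too few to describe glands apart.

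By likeness to the summed members across 990 control cells, the 8 nearest of 2740 genes seen in at least 5% of cells were Ly6a (Spearman 0.32), Isg15 (0.31), C3 (0.30), Fxyd3 (0.29), Ly6e (0.29), Sprr2f (0.29), Serpina1e (0.28) and Ifit1 (0.28). Prap1 gave most of the summed UMIs. Control Epcam-positive cells outside the marker majority (57 before thinning, with Dcn at 6924 CPM and Cdh1 at 8.90 CPM) were included. Their part in these lists was not tested. The 5 nearest to Ltf were Lcn2 (0.34), Clca1 (0.22), C3 (0.22), Tmsb4x (0.21) and Prap1 (0.21).

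Other genes of the oestrogen response were set beside the members as a list. Over Epcam-positive cells 5 of 14 were at least 2-fold lower in cKO and 2 at least 2-fold higher, with a median log2 ratio of -0.26 (all genes 0.39), where 11.7% and 28.9% of all genes passed these limits. In marker-majority cells 6 were lower (Lif, Sprr2f, Clca1, Aqp5, Cited1 and Inhbb) and 1 higher (Ccnd1), with a median of -0.53 (all genes 0.16), against 13.9% and 20.5% of all genes. Clca1, a secreted regulator of chloride conductance, was 821 CPM in control and 13.6 CPM in cKO marker-majority cells, 60.2-fold lower. Cited1, a transcriptional coregulator, had 2645 UMIs and 4. Ccnd1, the cyclin D1 gene, was 73.1 and 289 CPM there, 3.95-fold higher (3.59 to 4.34). Pgr, the progesterone receptor gene, was 2.78-fold higher (2.46 to 3.15) over Epcam-positive cells but 26.5 and 34.9 CPM in marker-majority cells, 1.32-fold (1.03 to 1.67). Esr1, the gene of oestrogen receptor alpha itself and named after its values were seen, was 98.7 and 91.1 CPM in marker-majority cells, a ratio of 0.924 (0.798 to 1.07).

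Other secretory and defence genes lay on both sides. Of 9 with enough UMIs over Epcam-positive cells, 4 were at least 2-fold lower and 4 at least 2-fold higher, against 11.7% and 28.9% of all genes. In marker-majority cells 3 of 8 were lower and 3 higher, against 13.9% and 20.5% of all genes. The list's median log2 ratio was -0.96 over Epcam-positive cells (all genes 0.39) and -0.36 in marker-majority cells (all genes 0.16). Pigr, which carries immunoglobulin A across the epithelium, was 274 and 24.7 CPM in marker-majority cells, 11.1-fold lower, and Wfdc18 had 917 UMIs in control and 3 in cKO. Slpi, a secreted protease inhibitor, was 35.7 and 117 CPM, 3.28-fold higher (2.84 to 3.79). Muc16 was 16.6-fold higher (10.9 to 26.0) over Epcam-positive cells, but had 5 and 2 UMIs in marker-majority cells, and mesothelium also expresses it.

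Of the progesterone response genes, 5 of 7 with enough UMIs were at least 2-fold higher over Epcam-positive cells, and 2 of 5 (Ihh and Acod1) in marker-majority cells, with 0 lower in either. Of all genes, 28.9% and 20.5% were at least 2-fold higher in these sets. The list's median log2 ratio was 1.87 over Epcam-positive cells (all genes 0.39) and 0.78 in marker-majority cells (all genes 0.16). Ihh, the epithelial hedgehog ligand, had 2 control UMIs and 81 cKO UMIs, the latter in 7 cells with 58.0% in 1. Hand2, a stromal transcription factor, had 22 and 88 UMIs over Epcam-positive cells and 3 and 0 in marker-majority cells.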

How the data were processed

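Droplet single-cell libraries were made from whole mouse uteri, 1 per genotype, and grouped by sample title. The deposited files hold raw counts, whole UMIs per gene and barcode, made by the authors with Cell Ranger (6.1.1 per the submitters' processing notes, version 4 per the file headers). The aligner and its settings are not given in the sources used here. Here, barcodes were filtered as described (500 genes, 20% mitochondrial UMIs), and counts were summed over cells and divided by the set's total to give CPM. Genes were compared where the higher library had at least 10 UMIs. Intervals are exact (Poisson for levels, binomial for ratios of counts and for shares, Clopper-Pearson), at 95%, and cover counting error only. A count of 0 allows up to 3 counts. Cells were thinned without replacement, in 1 random draw per depth, to 1000 UMIs (500, 2000 and 5000 as alternatives). With 1 library a group, no p-value was computed. Calls past 2-fold and the medians over lists and over all genes in the report had 0.5 UMI added to each count, and counts and medians of the members under alternatives had none. From each other list the text names the 2 genes with the largest rise and the 2 with the largest fall, by the interval limit nearer to 0, and the genes most like the members were ranked by Spearman correlation among genes seen in at least 5% of cells. The members and lists were chosen with earlier results of these data known. Doublet scores were computed with Scrublet in scanpy 1.11.5, and no cell was removed by them except as an alternative. TMM factors came from edgeR 4.0.16 and median-ratio factors from DESeq2 1.42.0, used for scaling only, beside Python 3.11.15, NumPy 2.4.6, SciPy 1.17.1 and pandas 2.3.3. The ratio computation was tested on simulated counts.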

Additional observations from a re-analysis of the deposited data

How the results depend on the processing

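Of 12 alternatives for the gate, depth, weighting and scaling of cells, all 12 left the same 7 members at least 2-fold lower in cKO, where between 11.3% and 26.3% of all genes were. TMM and median-ratio scaling each gave 8, adding Prap1 at -1.15 in both (21.9% of all genes). Ltf and Muc4 were at least 2-fold lower under 18 of 18 when 6 added after seeing the data are counted. The number at least 2-fold lower was 2 in marker-majority cells (13.9% of all genes). Among those cells it was 2 over 10000 UMIs (12.2%), 4 weighted equally (21.3%), 4 with the top cell of each gene left out (18.4%), 5 thinned to 1000 UMIs (28.9%) and 6 with TMM (22.7%). The median log2 ratio of the members, here with no UMI added, was -1.63 over all Epcam-positive cells, -1.43 with at least 2 Epcam UMIs, -1.38 with a keratin UMI and no Pdgfra UMI, -2.02 with cells weighted equally, -2.55 thinned, -2.19 with TMM, -2.20 with median-ratio scaling and -1.86 without the top cell. In marker-majority cells it was -0.79, and -1.21 thinned, -0.92 weighted equally, -0.99 without the top cell, -0.74 over 10000 UMIs and -1.24 with TMM. Wfdc2 turned to -0.26 with TMM and -0.26 with median-ratio scaling, which moved every log2 ratio by 0.57, so the median gene stood at -0.18. Prap1 turned to 0.27 in marker-majority cells, 0.22 thinned, 0.27 weighted equally, 0.039 without the top cell and 0.37 over 10000 UMIs. The share of cells with at least 3 members was 60.0% in control and 20% in cKO at 500 UMIs, and 92.9% and 32.5% at 2000 UMIs. It was 89.7% and 43.0% with at least 2 Epcam UMIs, and 86.8% and 61.4% in marker-majority cells. Doublet scores above 0.25 were given to 42 control cells (11 of them Epcam-positive) and 60 cKO cells (0). No paired analysis was possible because each group was 1 library. The 57 cKO marker-majority cells limit precision, and the spread between animals is unknown because each library pooled 3 mice.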
